A study of Mus musculus with 18 samples.

Results

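The p200 family, also called PYHIN or HIN-200, is a group of interferon-inducible genes that lie side by side on mouse chromosome 1. The 9 genes described here are Ifi203, Ifi204, Ifi205, Ifi206, Ifi207, Ifi209, Ifi211, Mndal and Aim2, taken by name from the 55401 genes of the count files. A member was to be dropped if it was missing from the annotation or had fewer than 3 counts in all libraries, and all 9 of 9 met the rule. RNA was sequenced in 18 mouse libraries that formed 6 groups of 3, and all 6 groups were treated with lipopolysaccharide (LPS) from bacterial cell walls at 5 ng/ml for 6 h. Wild-type (WT) and SMIM30-mutant (Mut) peritoneal macrophages formed the first pair of groups. The second pair was Mut macrophages infected with adenovirus, either a control virus (Mut AdCtrl) or one for Smim30 (Mut AdSmim30), added 6 h after seeding and left for 24 h before LPS, so both of these groups carry the mutation. The third pair was IC-21 cells, a permanent line derived from mouse peritoneal macrophages, transfected for 24 h with siRNA that was either a control (siCtrl) or directed at Smim30 (siSmim30). The strain label of all 6 groups is C57BL/6J. No group without LPS was analysed here, and the nature of the mutation, the animals' age and the promoter of the virus are not given in the sources used here. The labels do not say whether the 3 libraries of a group came from separate mice or cultures, so p-values reflect the spread among the libraries, which may be technical, and 1 line stands for all siRNA results.

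Most p200 proteins carry a pyrin domain, which binds other pyrin domains, and a HIN domain, which binds DNA. Aim2 binds DNA in the cytosol and recruits the adaptor ASC (gene Pycard), which activates caspase-1, and caspase-1 then cuts interleukin-1β, interleukin-18 and gasdermin D. Ifi204 is a mostly nuclear member reported to pass DNA signals to STING, the adaptor that leads to type I interferon. Type I interferon activates transcription factors that bind interferon-stimulated response elements (ISRE) in promoters. In macrophages LPS induces type I interferon through Toll-like receptor 4.

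The 9 members lay within 1 stretch of chromosome 1, in GRCm38 coordinates of the GENCODE annotation. In order they were Aim2 (173350879 to 173466040, plus strand), Ifi206 (173468485 to 173491041, minus), Ifi209 (173630917 to 173647928, plus), Ifi207 (173723427 to 173741747, minus) and Ifi204 (173747293 to 173766943, minus). Mndal (173849126 to 173880881), Ifi211 (173896345 to 173913046), Ifi203 (173920407 to 173942672) and Ifi205 (174011998 to 174031810) followed, all on the minus strand. The files hold 5 other genes of the family between them: Ifi214, Ifi213, Ifi208, the pseudogene Ifi203-ps and Ifi202b.

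Promoters from RefSeq (build GRCm38.p6) are shown because the members moved with interferon response genes in part of the comparisons below. The core of an ISRE, taken as the letters GAAA, any 2 bases and GAAA again, was searched on both strands in the 250 bases before each RefSeq start site, and 2.98% of 32851 such windows held it. It was found for 6 members, Ifi203, Mndal, Ifi211, Ifi205, Ifi206 and Ifi207, and not in the windows of Ifi209 and Aim2. Ifi204 had no entry in the promoter table. The 10 bases in capitals below are the ISRE match, or for Ifi209 the 10 bases that differ at 1 base from GAAATCGAAA, the letters most matches had, within 50 bases of the promoter.

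Mndal, chr1:173880194-173880243, minus strand: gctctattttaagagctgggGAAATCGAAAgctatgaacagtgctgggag
Ifi203, chr1:173942498-173942547, minus strand: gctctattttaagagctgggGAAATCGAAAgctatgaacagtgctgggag
Ifi207, chr1:173741821-173741870, minus strand: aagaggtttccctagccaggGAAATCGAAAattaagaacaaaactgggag
Ifi205, chr1:174031860-174031909, minus strand: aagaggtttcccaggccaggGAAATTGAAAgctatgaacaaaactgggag
Ifi211, chr1:173913054-173913103, minus strand: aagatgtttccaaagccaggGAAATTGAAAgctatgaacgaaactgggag
Ifi206, chr1:173491329-173491378, minus strand: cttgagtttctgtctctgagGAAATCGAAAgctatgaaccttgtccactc
Ifi209, chr1:173630760-173630809, plus strand: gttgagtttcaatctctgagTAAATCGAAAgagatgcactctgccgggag

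The 50 bases of Mndal and Ifi203 were the same letter for letter. Counted from 1 at the first capital, Ifi205 and Ifi211 differed from GAAATCGAAA by C6T, which still matches the searched letters, and Ifi209 differed by G1T, which does not. The printed match ended 26 bases before the start site in Ifi203, 27 in Mndal, 28 in Ifi211, 31 in Ifi206, 32 in Ifi207 and 125 in Ifi205. For Ifi203 the match belonged to the second of its 2 start sites in the table. Mndal also has 2 start sites there, and the window of the other held a further match, on the opposite strand, 54 to 45 bases before it.

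The 250 bases of Aim2 and Ifi207 are printed whole because these 2 members differed from the others in the virus groups below, and Aim2, at chr1:173420354-173420603 on the plus strand, has no ISRE match and so no capitals.

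Aim2 promoter: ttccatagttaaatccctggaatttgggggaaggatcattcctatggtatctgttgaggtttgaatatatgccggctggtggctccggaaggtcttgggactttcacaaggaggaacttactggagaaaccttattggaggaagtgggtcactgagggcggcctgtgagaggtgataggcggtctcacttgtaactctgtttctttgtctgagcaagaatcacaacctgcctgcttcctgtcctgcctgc
Ifi207 promoter, chr1:173741810-173742059, minus strand: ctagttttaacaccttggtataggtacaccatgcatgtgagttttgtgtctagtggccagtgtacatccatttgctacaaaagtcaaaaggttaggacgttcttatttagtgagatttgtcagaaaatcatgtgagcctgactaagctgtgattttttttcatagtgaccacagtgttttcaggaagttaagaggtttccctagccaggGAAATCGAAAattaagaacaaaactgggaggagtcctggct

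The Aim2 window held the letters GAGGAAGT, a PU.1 core found in 2.44% of all windows, 113 to 106 bases before the start site. Ifi209 held the kB letters GGGA, any 2 bases and TTCC, found in 1.21% of all windows, 49 to 40 bases before its start site. The letters TTCNNNGAA (GAS, 7.02% of all windows) were in none of these members' windows. TGANTCA (AP-1, 6.75% of all windows) was found in those of Ifi203, Mndal and Ifi209. No match of 1 motif overlapped that of another in the members' windows. A match of letters is a description and not a measured binding site.

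Between 6855245 and 13456857 read pairs per library were assigned to genes, and 3 counts, taken as the detection floor, equal 0.223 to 0.438 CPM, counts scaled to a common library total. Ribosomal RNA genes held 1.74 to 2.49% of counts in WT, 0.3995 to 1.03% in Mut and 0.195 to 0.484% in the other 4 groups. The macrophage markers were all detected in every group (8 of 8), while the large peritoneal macrophage markers Gata6 and Timd4 were at 0 in both IC-21 groups. Of the 5 neutrophil markers, S100a9, Retnlg and Ly6g were at 0 in all 6 groups, while S100a8 and Csf3r were detected. The gene of the mutated protein, listed as 2610001J05Rik, was at 48.1 ± 3.45 CPM in the WT libraries and 48.7 ± 5.65 CPM in the Mut libraries (log2 fold change 0.01, adjusted p = 0.966 in edgeR). It was higher with the Smim30 virus (0.28, SE 0.062, adjusted p = 0.0052) and lower with its siRNA (-0.97, SE 0.12, adjusted p = 6.17e-08), both in edgeR. Its count does not show what the mutation does to the protein.

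Some members share long stretches of sequence, and pairs that map to more than 1 place were not set to be counted, so levels of near-identical members are uncertain. Of all 50-base words of Ifi211 transcripts, 72.8% also occurred in another gene, most often Ifi205 (44.7%). The share was 33.7% for Ifi209, 25.6% for Ifi206, 20% for Ifi204, 19.6% for Mndal, 18.6% for Ifi205 and 12.4% for Ifi203. It was 7.29% for Ifi207 and 0.742% for Aim2, the members that can be told apart best.

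The family as a whole was highest in LPS-treated Mut macrophages and lowest in IC-21. Its summed level was 730.4 ± 18.5 CPM in WT (mean ± SD, n = 3 here and below), 1210 ± 196.7 in Mut, 872 ± 14.3 in Mut AdCtrl and 856 ± 19.6 in Mut AdSmim30. In IC-21 the sum was 266 ± 12.1 with siCtrl and 265 ± 1.33 with siSmim30. The spread among the 3 Mut libraries, at 1397, 1229 and 1005 CPM, was wider than in any other group, and no Mut library overlapped WT. In bulk RNA, more cells that express a gene and more RNA of it per cell cannot be told apart.

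Ifi207 was the leading member in most groups when levels were taken per kilobase of exon (RPKM). In WT it stood at 42.5 ± 1.49 RPKM, ahead of Ifi203 at 31.7 ± 1.09, and these did not overlap. Mndal (24.3), Ifi211 (23.3) and Ifi204 (21.7) RPKM followed, and neighbours in that run overlapped. Ifi205 (18.6), Ifi209 (15.01), Aim2 (8.86) and Ifi206 (1.31) RPKM came last in WT. In Mut, Ifi203 (54.8 ± 8.09 RPKM) and Ifi207 (54.3 ± 5.47) overlapped at the top. In both virus groups Ifi207 stood apart, at 102.5 and 101.8 RPKM, followed by Ifi204 at 31.1 and 31.4.

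**Figure D1:**
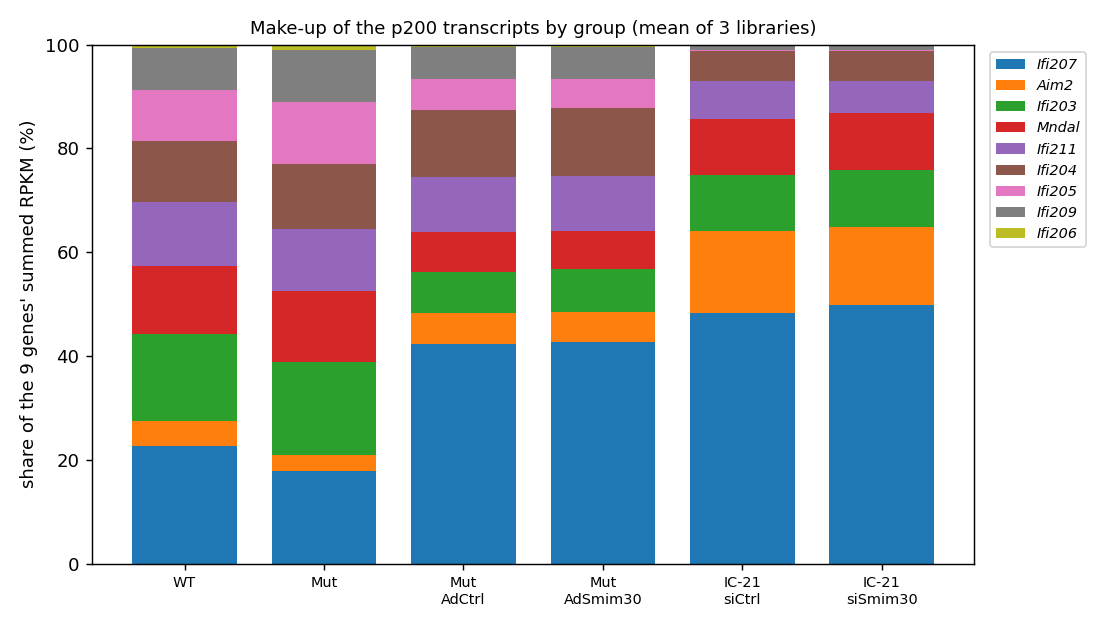
Share of each p200 gene in the summed RPKM of the 9 genes (y axis, percent), mean of 3 libraries for each of the 6 groups (x axis, stacked bars). Ifi207 made up 22.7% in WT, 17.9% in Mut, 42.3% in Mut AdCtrl and 48.2% in siCtrl IC-21, and Aim2 made up 4.73% in WT and 15.85% in siCtrl IC-21.

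The share of each gene in the family's RPKM therefore differed between groups. Ifi207 held 22.7 ± 0.358% in WT and 17.9 ± 1.21% in Mut, against 42.3 ± 1.91% in Mut AdCtrl and 48.2 ± 1.51% in siCtrl. Ifi203 held 16.9 ± 0.636% in WT, 17.95 ± 0.466% in Mut and 7.94 ± 0.323% in Mut AdCtrl. Ifi205, Ifi209 and Ifi206 together made almost none of the family in IC-21, with 0.223%, 0.927% and 0.0217% in siCtrl.

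The first comparison set Mut against WT peritoneal macrophages, both under LPS. Of the 9 members, 5 were higher in Mut than in WT at an adjusted p under 0.05 (edgeR's quasi-likelihood test, Benjamini-Hochberg over 12500 genes), none was lower and 4 did not pass. Over all genes tested, 3.68% were called higher and 2.62% lower. The 5 were Ifi203, Mndal, Ifi211, Ifi206 and Ifi207. The median log2 fold change of the 9 was 0.78, beside -0.01 over all genes tested. The 3 Mut libraries lay above all 3 WT libraries for 8 members, all but Aim2, which 11.4% of all tested genes also did.

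Ifi203 and Mndal rose to a similar degree. Ifi203 stood at 213, 219.5 and 205 CPM in the WT libraries and at 412.5, 383 and 307 CPM in the Mut libraries, a log2 fold change of 0.78 (SE 0.12, adjusted p = 0.0215 in edgeR). The adjusted p of Ifi203 was 0.142 without WT replicate 1, 0.101 without WT replicate 3 and 0.0774 without Mut replicate 2, so the call is not held by every subset of libraries. Mndal, a relative of the human myeloid nuclear antigen MNDA, stood at 86.3, 89.8 and 85.9 CPM in the WT libraries and at 165.6, 149.9 and 129 CPM in the Mut libraries. Its log2 fold change was 0.75 (SE 0.074, adjusted p = 2.1e-06 in edgeR). Of the exonic bases of Mndal, 3.29% are shared with a neighbouring gene model on the same strand.

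Ifi211 stood at 39.8, 39.9 and 44.9 CPM in the WT libraries and 68.2, 66.2 and 58.8 CPM in the Mut libraries, a rise of 0.61 (SE 0.076, adjusted p = 1.65e-06 in edgeR) on the log2 scale. Ifi206 had the largest fold change of the members and the lowest level, with 3.396, 4.45 and 4.11 CPM in the WT libraries and 13.1, 10.4 and 7.27 CPM in the Mut libraries. Its log2 fold change was 1.33 (SE 0.21, adjusted p = 0.000109 in edgeR), or 2.51-fold. Ifi207 changed least among the 5, from 139.7, 147.9 and 148.9 CPM in the WT libraries to 198.7, 194.5 and 164 CPM in the Mut libraries. That is a log2 fold change of 0.34 (SE 0.063, adjusted p = 0.00132 in edgeR).

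Ifi204, Ifi205 and Ifi209 did not pass the test although their groups did not overlap. Ifi204 was at 73.0, 82.4 and 76.9 CPM in the WT libraries and 167.5, 136 and 110.2 CPM in the Mut libraries (log2 fold change 0.82, SE 0.19, adjusted p = 0.104 in edgeR). Ifi205 was at 75.6, 81.6 and 76.2 CPM in the WT libraries and 197.7, 149 and 116.7 CPM in the Mut libraries (0.97, SE 0.23, adjusted p = 0.123). Ifi209 was at 52.1, 52.75 and 54.9 CPM in the WT libraries and 138, 103.6 and 83.5 CPM in the Mut libraries (1.00, SE 0.22, adjusted p = 0.104). In all 3 genes Mut replicate 1 was highest and Mut replicate 3 lowest, and the adjusted p in edgeR fell to 0.00347 or below without either of these 2 libraries. DESeq2 and limma-voom each called 8 of the 9 members higher, these 3 among them.

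Aim2 was the only member with overlapping groups, at 30.8, 32.1 and 30.2 CPM in the WT libraries and 35.0, 36.1 and 27.4 CPM in the Mut libraries. Its log2 fold change was 0.06, with a 95% interval of -0.14 to 0.26 and an adjusted p of 0.822 in edgeR. That interval lies below the 95% intervals of Mndal (0.59 to 0.90) and Ifi211 (0.46 to 0.77). It overlaps that of Ifi207, which was called, and no test between genes was run.

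**Figure D2:**
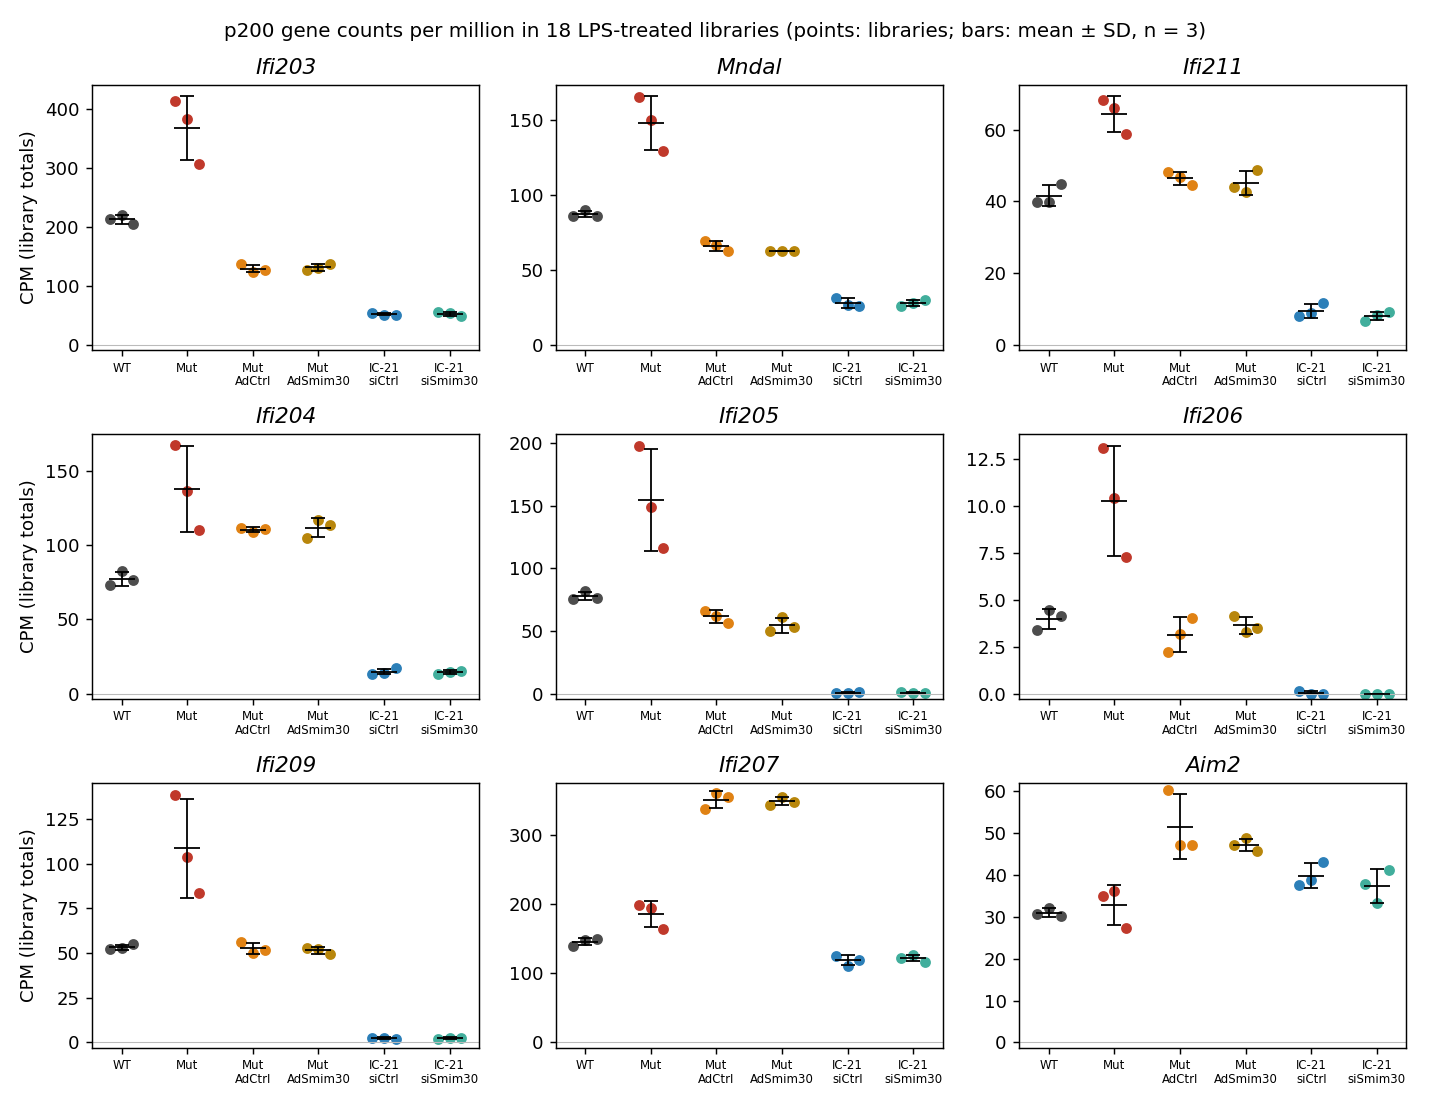
Level of each p200 gene in CPM on library totals (y axis, linear, 1 panel per gene with its own scale) in the 6 groups (x axis); points are libraries, bars the mean ± SD of 3. Mut libraries lie above WT for every gene except Aim2, Ifi207 and Aim2 have their highest points in the virus groups, and Ifi205, Ifi206 and Ifi209 lie near 0 in IC-21.

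Few genes of DNA sensing, the Aim2 inflammasome and nucleic acid clearance, from lists chosen by function, were called. Of 16 tested DNA-sensing genes, 1 was higher in Mut and none lower, with a median log2 fold change of 0.01. That is 6.25% of the list, beside 6.3% of all tested genes called in either direction. The one was Tmem173, which encodes STING (0.40, SE 0.12, adjusted p = 0.0389 in edgeR). Cgas, which makes the cyclic dinucleotide that STING binds, had a log2 fold change of -0.09 (adjusted p = 0.684). Of 10 tested partners and products of the Aim2 inflammasome, 1 was higher, Il1b, from 645 ± 41.8 CPM in the WT libraries to 1761 ± 336 CPM in the Mut libraries (1.44, SE 0.18, adjusted p = 0.021). The adaptor gene Pycard had -0.03 (adjusted p = 0.926) and Casp1 0.15 (adjusted p = 0.145). Of 6 tested genes that clear nucleic acids, Samhd1, which degrades deoxynucleotides, was higher (0.49, SE 0.075, adjusted p = 0.0018).

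Among genes of interferon signalling and response, those called were all higher in Mut. Of 16 tested signalling genes, 7 were higher and none lower, with a median log2 fold change of 0.21. Among them were Socs1, an inhibitor of JAK kinases (0.76, adjusted p = 0.00447), Stat2 (0.44, adjusted p = 0.0498) and the kinase Jak2 (0.26, adjusted p = 0.00161), all in edgeR. Of 25 interferon response genes, 7 were higher and none lower, with a median of 0.56 and all 25 above 0. They were led by Ifi44 (1.16, adjusted p = 0.0145), the chemokine Cxcl10 (0.94, adjusted p = 0.00261), the exonuclease gene Isg20 (0.79, adjusted p = 0.00934) and Rtp4 (0.54, adjusted p = 6.62e-05).

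The sum over those 25 interferon response genes and the sum over the 9 members put the Mut libraries in the same order. The interferon response sum was 3209, 3611 and 3351 CPM in the WT libraries and 6055, 4731 and 4092 CPM in Mut replicates 1, 2 and 3. The p200 sum was 714, 750.4 and 727 CPM in the WT libraries and 1397, 1229 and 1005 CPM in the same Mut libraries. That order was not particular to these 2 sums. The DNA-sensing sum had it too, at 1979, 1957 and 1904 CPM, as did the inflammasome, nucleic acid clearance and neutrophil marker sums. The B cell and mast cell marker sums had the reverse order. Assigned read pairs also ran in reverse, at 7947364, 9020990 and 12246311 in Mut replicates 1, 2 and 3, and their part was not tested. With 3 libraries no correlation was computed.

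**Figure D3:**
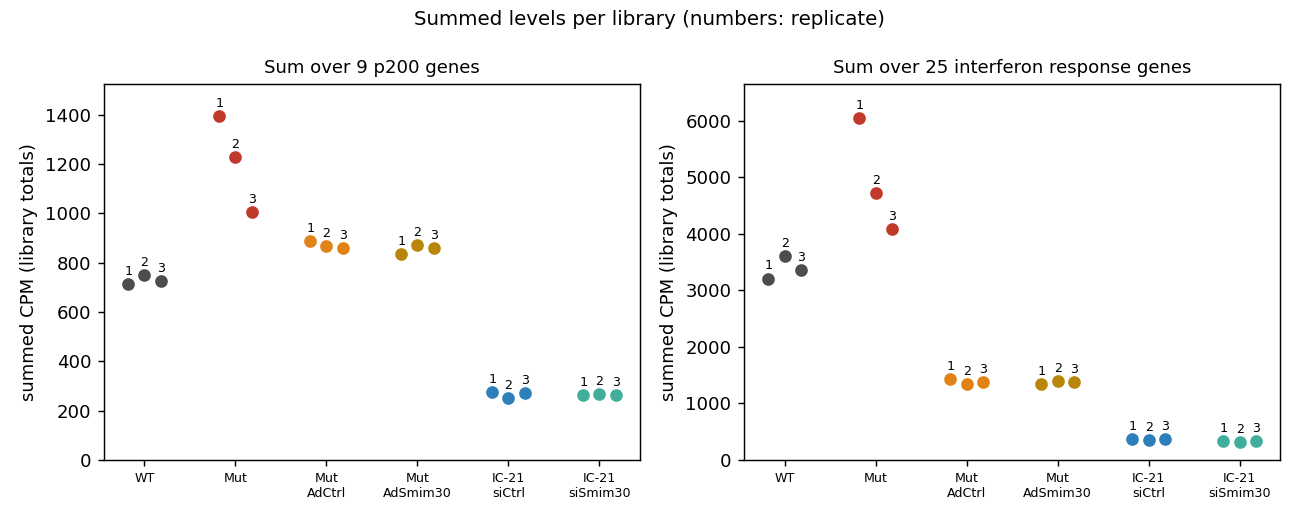
Summed CPM on library totals (y axes, linear, from 0) of the 9 p200 genes (left) and of 25 interferon response genes (right) in each library of the 6 groups (x axis), with replicate numbers above the points. In Mut, replicate 1 is highest and replicate 3 lowest in both panels, an order that some other lists, not drawn here, also had. In the virus groups the p200 sum stays above that of WT while the interferon response sum is below it. The p200 sum there is carried by Ifi207, with a mean of 350.9 CPM in Mut AdCtrl and 145.5 CPM in WT. Ifi204, Ifi211 and Aim2 also have higher means in both virus groups than in WT. Ifi203, Ifi205, Ifi206, Ifi209 and Mndal have lower ones.

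Other measures that differed between the Mut and WT libraries were the ribosomal RNA share given above and several marker lists. Without the ribosomal RNA genes, 5 members were called again. The summed B cell markers were 83.0 to 92.1 CPM in the WT libraries and 60.3 to 63.9 CPM in the Mut libraries, with Cd22 called lower among 4 tested and none of the 6 at 0. The summed markers of small peritoneal macrophages and dendritic cells were 10.4 to 12.2 CPM in the WT libraries and 16.4 to 20.95 CPM in the Mut libraries, with Batf3 called higher among 3 tested and none of the 8 at 0. The neutrophil marker sum was 155 to 162 CPM in the WT libraries and 175 to 194 CPM in the Mut libraries, with Csf3r called higher among 2 tested and the other 3 of 5 at 0. The plasmacytoid dendritic cell markers summed to 38.95 to 41.5 CPM in the WT libraries and 42.2 to 53.98 CPM in the Mut libraries, and the mast cell markers to 6.69 to 7.85 CPM and 7.93 to 9.39 CPM, with none called and none at 0. The macrophage marker sum was 11040 to 11760 CPM in the WT libraries and 9955 to 10460 CPM in the Mut libraries, with Fcgr1 and Cd14 called higher and Lyz2 lower among 8. The large peritoneal macrophage marker sums overlapped, at 751 to 799 CPM in the WT libraries and 797 to 860 CPM in the Mut libraries. Of its 5 tested genes 1 had a log2 fold change above 0, with a median of -0.45 and none called. The part of these cell markers in the p200 result was not tested.

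The second comparison asked what a Smim30 adenovirus does in Mut macrophages, and no p200 gene passed the test. The listed Smim30 gene was at a mean of 43.95 CPM in Mut AdCtrl and 53.06 CPM in Mut AdSmim30. No WT group received virus, so this comparison cannot show whether a rise of Mut over WT was reversed. With AdSmim30 against AdCtrl, 0 of 9 members were called by edgeR, while 1.43% of 12701 tested genes were. At an unadjusted p under 0.05 edgeR had 1 member, Ifi205, and DESeq2 and limma-voom called none at an adjusted p under 0.05. Ifi203 was at 136, 124 and 127 CPM in Mut AdCtrl and 126, 129.5 and 138 CPM in Mut AdSmim30, so the groups overlapped. Its log2 fold change was 0.02, with a 95% interval of -0.06 to 0.11. Ifi207 had -0.01, with a 95% interval of -0.07 to 0.06, the narrowest of the members.

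Mndal was at 69.0, 66.5 and 62.6 CPM with the control virus and at 62.8, 62.7 and 62.7 CPM with the Smim30 virus (log2 fold change -0.07, 95% interval -0.18 to 0.04). Ifi205 was at 66.2, 62.25 and 56.4 CPM and at 49.7, 61.4 and 53.1 CPM (-0.16, 95% interval -0.30 to -0.03, adjusted p = 0.333 in edgeR). Without Mut AdCtrl replicate 3 the adjusted p of Ifi205 was 0.0182. Ifi206 had the widest interval, -0.24 to 0.69, at 2.20 to 4.03 CPM with the control virus and 3.28 to 4.14 CPM with the Smim30 virus. The remaining members, Ifi204, Ifi209, Ifi211 and Aim2, had log2 fold changes of 0.02, -0.03, -0.04 and -0.13.

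Few of the pathway genes passed in that comparison. Ikbke, a kinase that acts beside Tbk1, was lower (-0.16, SE 0.032, adjusted p = 0.00217 in edgeR), as 1 of 16 DNA-sensing genes. Cxcl10 was lower (-0.46, SE 0.11, adjusted p = 0.0122 in edgeR), as 1 of 25 interferon response genes. None of the 10 inflammasome genes and none of the 16 interferon signalling genes passed. The fibroblast and mesothelial markers differed as a list, with 6 of 6 tested lower and sums of 73.5 to 90.5 CPM with the control virus and 40.4 to 46.0 CPM with the Smim30 virus, and their part in the p200 values was not tested.

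The third comparison asked what less Smim30 RNA does in IC-21 cells. None of the 7 tested members was called (edgeR, DESeq2 and limma-voom), none had an unadjusted p under 0.05 in edgeR, and 3.48% of 13576 tested genes were called by edgeR. Ifi205 and Ifi206 were too low to be tested in IC-21. Ifi207 was at 126, 111 and 119.5 CPM with siCtrl and 122, 126 and 117 CPM with siSmim30 (log2 fold change 0.06, 95% interval -0.03 to 0.16). Aim2 was at 37.6, 38.9 and 43.2 CPM and at 37.8, 33.2 and 41.2 CPM (-0.08, 95% interval -0.25 to 0.08). Ifi203 was at 54.1, 50.2 and 51.3 CPM and at 55.15, 53.25 and 49.2 CPM (0.04, 95% interval -0.10 to 0.18). These groups overlapped for all 7 members.

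The intervals were wider for the members that IC-21 expresses less. Ifi211 was at 8.02, 8.76 and 11.6 CPM with siCtrl and 6.69, 8.31 and 9.09 CPM with siSmim30 (-0.23, 95% interval -0.56 to 0.11). Ifi209 was at 1.85 to 2.63 CPM with siCtrl and 2.03 to 2.73 CPM with siSmim30 (0.06, 95% interval -0.55 to 0.67). A change of the size measured for Ifi209 in Mut lies outside that interval, but that change did not pass its own test. The direct test of the difference, given below, did not pass for Ifi209 either. Of the pathway lists, Parp14 was lower (-0.18, adjusted p = 0.0484) and Ifngr1, a chain of the interferon gamma receptor, was higher (0.24, adjusted p = 0.0256), both in edgeR.

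**Figure D4:**
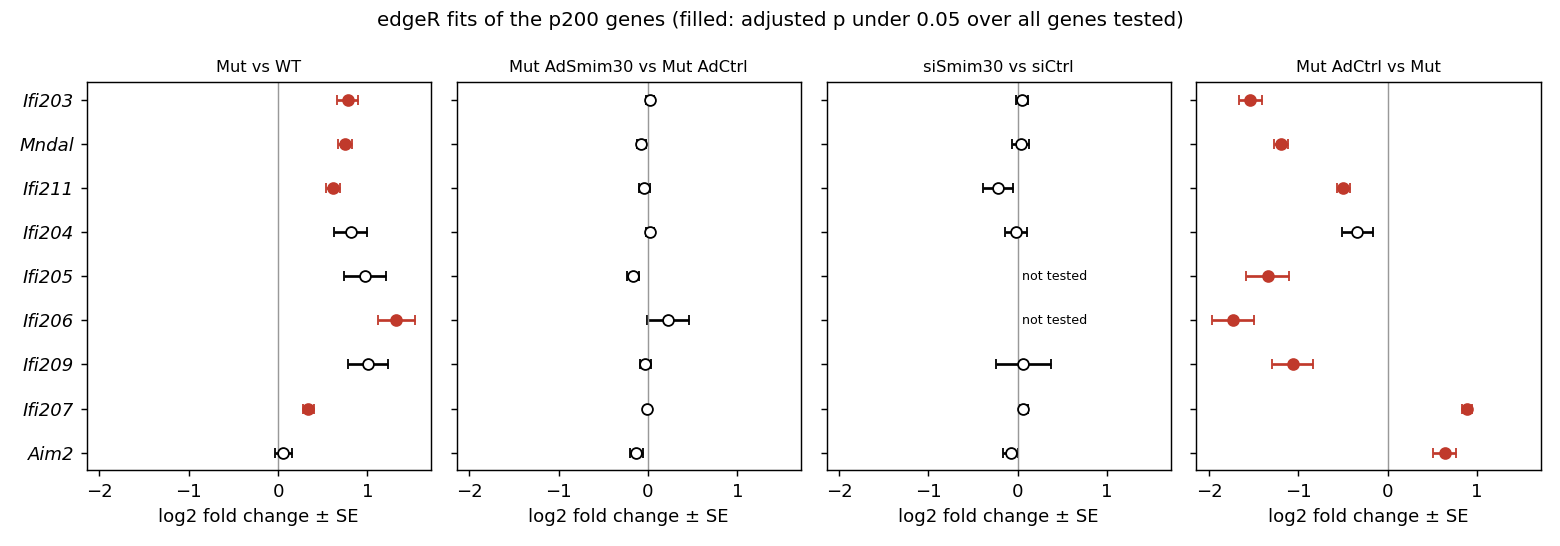
Log2 fold change ± SE (x axis, same scale in each panel) of the 9 p200 genes (y axis) in 4 comparisons from edgeR, with filled points at an adjusted p under 0.05 over all genes tested. Filled points are on the right for 5 genes in Mut against WT, absent for the Smim30 virus and the siRNA, and on both sides for Mut AdCtrl against Mut, with Ifi207 and Aim2 on the right.

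Whether the difference of Mut from WT differed from those seen with the virus and the siRNA was tested directly, with interaction terms. That difference is called the mutation effect here, and it includes any other difference between the Mut and WT libraries. The mutation effect exceeded the siRNA effect for 3 members, Ifi203, Ifi211 and Mndal, with 1.25% of 14804 tested genes called in that direction. It exceeded the Smim30 virus effect for 5 members, Ifi203, Ifi206, Ifi207, Ifi211 and Mndal, with 2.31% of 13422 tested genes called in that direction. For Aim2 neither difference passed, at 0.14 (95% interval -0.12 to 0.40) and 0.19 (95% interval -0.09 to 0.47) on the log2 scale. The terms compare effects measured in different cells or culture times. For a member that rose in Mut, a fall with the Smim30 virus and no change with it would both make the virus term positive. A call in that term therefore does not tell whether the virus had an effect.

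Adding the control virus to Mut macrophages came with the largest shifts among primary cells, and these split the family. In Mut AdCtrl against Mut, 6 members were lower, 2 were higher and 1 did not pass, beside 26.5% of 12798 tested genes lower and 27.1% higher. Of all tested genes, 53.6% changed, so the count of members is to be read against that background. The virus, the added time in culture and the part of the series coincide in this comparison and cannot be told apart. It shares its Mut libraries with the first comparison, so a high Mut value raises 1 fold change and lowers the other.

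The members lower in Mut AdCtrl were Ifi206, Ifi203, Ifi205, Mndal, Ifi209 and Ifi211. Ifi203 went from 412.5, 383 and 307 CPM in Mut to 136, 124 and 127 CPM in Mut AdCtrl, below all 3 WT libraries (log2 fold change -1.54, SE 0.13, adjusted p = 0.000388 in edgeR). Mndal had -1.19 (SE 0.081, adjusted p = 1.53e-08) and Ifi206 -1.73 (SE 0.24, adjusted p = 2.29e-06). Ifi205 fell by 1.34, Ifi209 by 1.06 and Ifi211 by 0.50 on the log2 scale. For Ifi209, at 49.8 to 56.0 CPM in Mut AdCtrl, the adjusted p of 0.0178 rose to as much as 0.065 without Mut replicate 2 or any 1 of the 3 Mut AdCtrl libraries.

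Ifi207 and Aim2 went the other way. Ifi207 was at 338, 360.5 and 355 CPM in Mut AdCtrl and 198.7, 194.5 and 164 CPM in the Mut libraries (log2 fold change 0.89, SE 0.061, adjusted p = 1.29e-09 in edgeR). Aim2 was at 60.4, 47.2 and 47.1 CPM in Mut AdCtrl and 35.0, 36.1 and 27.4 CPM in the Mut libraries (0.64, SE 0.13, adjusted p = 0.00139 in edgeR). Ifi204, at 112, 109 and 111 CPM, lay close to the lowest Mut library and above WT (-0.34, SE 0.17, adjusted p = 0.177 in edgeR).

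Cell markers also differed in this comparison. The fibroblast and mesothelial markers were lower in 6 of 6 tested, with sums of 179 to 209.7 CPM in the Mut libraries and 73.5 to 90.5 CPM in Mut AdCtrl. The neutrophil markers were lower in 2 of 2 tested, with sums of 175 to 194 CPM and 92.4 to 96.6 CPM, and S100a9, Retnlg and Ly6g at 0. Of 3 tested B cell markers Cd79a and Ighm were lower and Cd22 higher, with sums of 60.3 to 63.9 CPM and 84.6 to 95.6 CPM and none of the 6 at 0. The mast cell markers were lower in 2 of 4 tested, with sums of 7.93 to 9.39 CPM and 3.50 to 5.11 CPM and none of the 5 at 0. Their part in the p200 result was not tested.

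The interferon response genes did not split in this way. Of 25, 24 were lower in Mut AdCtrl than in Mut and none higher, with a median log2 fold change of -1.98, beside -1.06 over the 9 p200 members. Of 16 interferon signalling genes, 12 were lower, among them Socs1 (-3.32), Stat2 (-1.83) and Usp18 (-1.78), and 3 were higher. Of 10 inflammasome genes, 7 were lower, among them the guanylate-binding protein genes Gbp2 (-2.81) and Gbp5 (-2.58), Il18 (-2.31) and Il1b (-2.24). Among 16 DNA-sensing genes 6 were lower and 5 higher. Tlr9, the endosomal receptor for unmethylated CpG DNA, rose from 1.48 ± 0.27 to 24.65 ± 1.42 CPM (4.05, adjusted p = 5.23e-19), and Nlrc3 rose by 2.75 on the log2 scale. Zbp1, a sensor of Z-form nucleic acids, fell by 3.56 and Trim56 by 1.30. All of these are edgeR fits with adjusted p under 0.05.

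IC-21 cells carried less p200 RNA than primary macrophages, and of a different make-up. In siCtrl IC-21 against WT, all 9 members were lower by edgeR with TMM scaling, though Aim2 was higher on library totals, beside 40.2% of 14066 tested genes lower. Over all genes 5645 were called higher and 5654 lower with TMM, and 9176 higher and 3031 lower on library totals. Cell source, transfection and part of the series coincide here. The scaling moves log2 fold changes by -0.71, and the direction for Aim2 depends on it. On library totals Aim2 was at 37.6, 38.9 and 43.2 CPM in siCtrl, above 30.8, 32.1 and 30.2 CPM in WT. After TMM scaling it was at 29.2, 30.6 and 33.9 CPM in siCtrl, below 39.0, 41.15 and 38.7 CPM in WT (log2 fold change -0.34, SE 0.083, adjusted p = 0.000287 in edgeR).

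The other 8 members were lower on both scales. On library totals Ifi205 was at 0.729, 0.167 and 1.16 CPM in siCtrl against 75.6, 81.6 and 76.2 CPM in WT, or 17 counts against 2261. Its level was 0.797% of WT (95% counting interval 0.464 to 1.28%). Ifi206 had 1 count in the 3 siCtrl libraries and 116 in WT, which is 0.914% of the WT level (95% counting interval 0.023 to 5.2%). Ifi209 was at 2.63, 2.59 and 1.85 CPM against 52.1, 52.75 and 54.9 CPM (log2 fold change -5.19). Ifi204 (-3.08), Ifi211 (-2.84), Ifi203 (-2.74) and Mndal (-2.36) lay between these and Ifi207 (-1.01) on the TMM scale. Counting intervals cover counting error only.

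The rest of the pathway was lower in IC-21 too, with 25 of 25 interferon response genes, 16 of 16 interferon signalling genes and 10 of 10 inflammasome genes called lower by edgeR with TMM scaling, of which Casp4, Casp8, Irf8 and Cxcl10 had a higher mean in siCtrl than in WT on library totals. The DNA-sensing genes were mixed, with 9 lower and 6 higher of 16. Zbp1 had no count in either IC-21 group. Cgas was higher (0.39, adjusted p = 1.15e-05) and Tmem173 lower (-0.97, adjusted p = 4.66e-09) on that scale.

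Each member was set beside all genes with a mean of at least 5 CPM to find those of most similar profile over the 18 libraries, by the root-mean-square difference in centred log2(CPM + 0.5) after TMM scaling. The libraries share their groups and scaling, so this is a description. Of the 9389 genes ranked, the nearest to Ifi203 were Phf11d (0.168), Mndal (0.188) and Uba7 (0.198), and the nearest to Mndal were Zyx (0.111), Ifi203 (0.188) and Parp9 (0.192). Ifi211 was nearest to Cyp4v3 (0.193), Anxa5 (0.208) and Mamld1 (0.216), and Ifi204 to Rasgef1b (0.249), Mapre2 (0.26) and Ifi211 (0.26). Ifi207 was nearest to Il10ra (0.113), Myo1e (0.119) and Rel (0.119). Aim2 was nearest to Fbxo28 (0.118), Ugt1a7c (0.126) and Nop53 (0.126). Ifi209 was nearest to Cxcl16 (0.274), Slfn1 (0.298) and Ece1 (0.315), and Ifi205 to H2-Eb1 (0.377), Igf1r (0.38) and Lrrc32 (0.389). These 2 lists depended on the scaling. With no composition scaling they were Cxcl16, Klf8 and Ccnd2 for Ifi209, and Igf1r, Scd1 and Gpc1 for Ifi205. The other ranked members kept the same 3 genes. No p200 gene was among the 3 nearest to Ifi205, Ifi207, Ifi209, Ifi211 or Aim2, and Ifi206 was too low to be ranked.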

How the data were processed

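The authors deposited raw counts, the number of read pairs on each gene's exons, from featureCounts 2.0.3 on reversely stranded pairs and GENCODE M25 (GRCm38), per the file headers. Reads passed through fastp, FastQC and HISAT2, and DESeq2 3.1.0 is also named, per the submitters' processing notes. The number in each header differed from that in its file's name, and files were assigned to samples as deposited. Symbols came from GENCODE M21 (55141 of 55401 identifiers), and Smim30 was taken as 2610001J05Rik.

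edgeR 4.0.16 was fitted to the libraries of each comparison alone (R 4.3.3; filterByExpr, TMM, robust quasi-likelihood F test, Benjamini-Hochberg over all genes tested, 0.05) and was tested on simulated data. CPM is on library totals unless TMM is named, and RPKM uses exonic length. An exact permutation test of 3 against 3 cannot go below 0.1, so none was used. Alternatives were RLE or no composition scaling, no filter, 1 CPM in 3 libraries, DESeq2 1.42.0, limma-voom (limma 3.58.1), all 18 libraries, a replicate block, no ribosomal RNA genes, and each library left out. The members, lists and tests were chosen with earlier results of these data known. All 9 members are named, and of each list up to 4 called genes with the largest fold changes, with a few others named for their role after their values were seen. A listed gene is not reported here. Replicates differed by more than counting noise.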

Additional observations from a re-analysis of the deposited data

Results flagged for a closer look

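The mutation effect on a p200 gene differed from the siRNA or Smim30 virus effect in 8 tests of the difference itself. They used edgeR's quasi-likelihood test of an interaction term with Benjamini-Hochberg adjustment. The mutation effect here is Mut against WT, with any other difference between those libraries included. Values are differences of log2 fold changes. A positive value against the Smim30 virus effect can come from the rise in Mut alone, so it does not tell whether the virus had an effect.

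Against the siRNA effect in IC-21, the mutation effect was higher by 0.735 for Ifi203 (SE 0.133, adjusted p = 0.00799), by 0.841 for Ifi211 (SE 0.171, adjusted p = 0.00176) and by 0.717 for Mndal (SE 0.115, adjusted p = 0.00011). For Ifi203 the adjusted p lay between 0.0633 and 0.112 when any 1 of the 6 IC-21 libraries was left out. Ifi207 came next, at 0.28 (SE 0.0815, adjusted p = 0.0518), and did not pass.

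Against the Smim30 virus effect, the mutation effect was higher by 0.752 for Ifi203 (SE 0.145, adjusted p = 0.0234), by 1.10 for Ifi206 (SE 0.323, adjusted p = 0.0422) and by 0.344 for Ifi207 (SE 0.0754, adjusted p = 0.00579). It was higher by 0.650 for Ifi211 (SE 0.102, adjusted p = 3.11e-05) and by 0.819 for Mndal (SE 0.0938, adjusted p = 1.18e-06). Mndal and Ifi211 passed in both interaction tests under every alternative run. Ifi206 did not pass in 12 of 21 alternatives, with an adjusted p of up to 0.173 without Mut AdCtrl replicate 3 in edgeR, and DESeq2 (0.0666) and limma-voom (0.172) were among them. Ifi203 did not pass in 7 of 21, with an adjusted p of up to 0.0742 without Mut AdCtrl replicate 1 in edgeR. Primary cells and IC-21, and short and longer culture, are confounded with the perturbations compared, and their parts cannot be told apart.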

How the results depend on the processing

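In Mut against WT, where 5 members were called, DESeq2, limma-voom and the fit of all 18 libraries each called 8, and leaving out 1 library gave 4 to 8 (8 without Mut replicate 1 or 3, and 4 without WT replicate 1, WT replicate 3 or Mut replicate 2). Mndal, Ifi211, Ifi206 and Ifi207 passed in all 15 alternatives. With AdSmim30, 0 members were called in all alternatives but 1, as leaving out 1 library gave 0 to 1. With siSmim30 the count was 0 in all 15. In Mut AdCtrl against Mut, 8 of the 9 members were called, and leaving out 1 library gave 7 to 9. For the mutation effect minus the siRNA effect, 3 members were called, with 6 without a filter, 5 in DESeq2 and 2 to 6 with 1 library left out. For the mutation effect minus the virus effect, 5 were called, with 8 in the fit of all 18 libraries and 3 to 8 with 1 library left out (3 without WT replicate 1, WT replicate 3, Mut replicate 2, replicate 3 of Mut AdCtrl, or replicate 1 or 2 of Mut AdSmim30, and 8 without Mut replicate 3). Where not shown by fewer samples, the cause was not tested. In siCtrl IC-21 against WT all 9 stayed called, and with no composition factor Aim2 turned to 0.367 and the calls over all genes were 9176 higher and 3031 lower, against 5645 and 5654. Over all genes, counts moved by over 1.5 times in Mut against WT from 788 to 1198 (all 18 libraries) and 469 (without Mut replicate 2). With AdSmim30 they moved from 181 to 68 (DESeq2), 87 (all 18 libraries) and 66 to 453 (1 library left out), and with siSmim30 from 472 to 296 (DESeq2), 263 (all 18 libraries) and 309 (without siCtrl replicate 2). The mutation effect minus the siRNA effect moved from 372 to 571 without Mut replicate 3.

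With replicate number as a block, 5 members were called in Mut against WT, 0 with AdSmim30, 0 with siSmim30, 8 in Mut AdCtrl against Mut, and 3 and 4 in the 2 interaction tests. Same-numbered libraries did not deviate together (r from -0.136 to 0.0642). That does not exclude a pairing of same-numbered libraries, which the labels do not state.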

Other observations

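The 5 other genes of the family that the files hold did not all move with the 9 members. Ifi208 went the other way in Mut macrophages. It had 18, 16 and 34 counts in the WT libraries and 2, 1 and 2 in Mut, which is 7.34% of the WT level (95% counting interval 2.31 to 18%). It was called lower, at -3.67 on the log2 scale (SE 0.53, adjusted p = 1.8e-05 in edgeR). Ifi208 was also low in the other Mut-derived groups, where Mut AdCtrl libraries had 9, 4 and 1 counts and Mut AdSmim30 libraries 1, 5 and 2, and it had no count in IC-21. Ifi213, another gene of the cluster, which shares the same 50 bases around the ISRE match, had 6.79, 6.45 and 5.98 CPM in WT and 20.5, 11.3 and 8.98 CPM in Mut (1.04, adjusted p = 0.181 in edgeR). The 50 bases are printed here because they are identical in the 2 genes.

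Ifi208, chr1:173673587-173673636, plus strand: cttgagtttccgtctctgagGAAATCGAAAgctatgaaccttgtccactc
Ifi213, chr1:173599316-173599365, minus strand: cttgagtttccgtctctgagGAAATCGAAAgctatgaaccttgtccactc

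Of the 50-base words of Ifi208 transcripts, 18.1% also occur in Ifi213, so their counts are uncertain. The pseudogene Ifi203-ps had 11, 10 and 9 counts in WT and 31, 29 and 22 in Mut (1.46, SE 0.37, adjusted p = 0.0112 in edgeR), and it was the 1 gene of the family called higher in siCtrl IC-21 than in WT, with 25, 37 and 19 counts. Ifi214 was at 2.02, 1.41 and 1.70 CPM in WT and 4.28, 2.55 and 1.23 CPM in Mut, so the groups overlapped, and it was not called. Ifi202b had at most 1 count in any library. Of 3 tested genes that flank the cluster, Slamf9, a surface receptor gene of myeloid cells, was higher in Mut than in WT (0.79, SE 0.16, adjusted p = 0.00149 in edgeR). It was higher again with AdSmim30 than with AdCtrl (0.38, SE 0.10, adjusted p = 0.0312 in edgeR), where no p200 gene passed.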
